A study of Mus musculus with 4 samples.

Results

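Genes that encode activators and exchange factors of small GTPases gave 319 of the 13499 circular RNAs (circRNAs) listed over lung development in the mouse, from 77 of 4596 host genes. A circRNA is a closed RNA loop made when the end of an exon is spliced back to the start of the same or an earlier exon, and the reads that cross this join (junction reads) count it. The host genes were chosen by symbol, as those starting with 1 of 12 prefixes: Arhgap, Arhgef, Dock, Rapgef, Rasa, Rasgrp, Srgap, Sipa1, Tbc1d, Asap, Agap or Dennd, with Rapgef6 left out. The rule itself uses no measured value. Each group is 1 library of total RNA, extracted with TRIzol from whole lung of C57BL/6 mice with no allele or treatment named in the labels: the pseudoglandular stage at embryonic day 14.5, the canalicular at day 16.5, the terminal sac stage at day 18.5, and the alveolar stage in newborns at day 7.5. How many animals a library pools is not in the labels. Since no stage has a replicate, no p-value is given, and every comparison is of libraries, not of stages.

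Small GTPases are molecular switches that are on with GTP bound and off with GDP bound. Exchange factors (GEFs) load them with GTP, and GTPase-activating proteins (GAPs) speed up GTP hydrolysis and turn them off. Rac and Cdc42 set the actin cytoskeleton, Ras and Rap act in growth signalling and adhesion, and Arf and Rab GTPases direct membrane traffic. The Arhgap, Srgap, Arhgef and Dock genes encode regulators of cytoskeletal GTPases, which in the lung are known for a part in epithelial branching and in the barrier of the endothelium.

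The sequences across the join show which exon ends meet in the circles that the results turn on. Each line holds the last 20 bases of the circle's final exon in lower case and the first 20 bases of its first exon in capitals, 5′ to 3′ on the gene's strand, read from GENCODE M21 transcripts (build GRCm38, also called mm10). Both ends of each lie in coding exons of 1 transcript. The Rasa2 circles lie at chr9:96591950-96611499 and chr9:96602713-96611499 on the minus strand, the Arhgap10 circle at chr8:77344640-77365160 (minus) and the Arhgap21 circle at chr2:20855354-20860036 (minus). On the plus strand lie the Dennd1b circles, at chr1:139040000-139062971 and chr1:139053346-139062971, the Arhgap32 circle at chr9:32181842-32190061 and the Dock4 circle at chr12:40626337-40649489.
Rasa2 exons 2 to 5: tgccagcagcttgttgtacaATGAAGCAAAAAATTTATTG
Rasa2 exons 2 to 4: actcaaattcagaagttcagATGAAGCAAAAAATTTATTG
Arhgap10 exons 14 to 18: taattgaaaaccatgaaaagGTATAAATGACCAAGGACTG
Arhgap21 exons 16 to 21: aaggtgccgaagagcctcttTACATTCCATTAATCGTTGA
Dennd1b exons 4 to 9: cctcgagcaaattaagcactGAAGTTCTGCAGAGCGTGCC
Dennd1b exons 6 to 9: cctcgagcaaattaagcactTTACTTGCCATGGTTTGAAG
Arhgap32 exons 6 to 9: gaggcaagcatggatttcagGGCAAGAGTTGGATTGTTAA
Dock4 exons 4 to 8: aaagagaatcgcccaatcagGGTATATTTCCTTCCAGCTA
The 2 Rasa2 circles share their capitals, since both begin with exon 2, and the 2 Dennd1b circles share their lower-case letters, since both end with exon 9.

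The libraries listed 25983 to 36156 junction reads in 4474 to 5564 circRNAs, and every listed circRNA had at least 2 reads in its library. Intervals are 95% intervals of counting error only, and PCR copies are not independent of each other. Because a share of junction reads in bulk tissue is measured, fewer cells of a type and less RNA per cell cannot be told apart. The listed marker hosts of lung epithelium (Sftpc, Sftpb, Lamp3 and Slc34a2, with Nkx2-1 at 0 in every library) held 0, 0.0192, 1.22 and 2.70% of junction reads in order of stage. The 8 endothelial hosts held 0.0539, 0.0961, 0.249 and 0.515%, with Kdr, Cdh5 and Calcrl at 0 in the first 3 libraries. Prex2, itself an exchange factor, gave 55 of the 90 terminal sac and 63 of the 146 alveolar reads of these hosts. Pecam1 had 3, 19, 22 and 39 reads in order of stage, while Flt1 had 4, 4, 2 and 2. The 5 immune hosts held 0.0385, 0.151, 0.166 and 0.0529%, with Ptprc and Csf1r at 0 in the later 3 libraries. Elmo1, also a regulator of cytoskeletal GTPases, gave 31 of the 60 terminal sac reads of these hosts. Cardiac and striated muscle hosts (Ttn and Ryr2, with Myh6 and Actn2 at 0 in every library) held 0.281, 0.0352, 0.0221 and 0.0424%. Whether cell makeup differed between the libraries, and its part in the values of the GTPase regulators, was not tested.

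The 77 hosts held between 2.47 and 2.96% of junction reads, with the Arhgap and Srgap genes the leading family in every library. Their share was 2.95% (interval 2.75 to 3.16) in the pseudoglandular library, from 766 reads of 44 hosts. It was 2.47% (2.30 to 2.65) in the canalicular library, from 771 reads of 42 hosts, and 2.96% (2.79 to 3.15) in the terminal sac library, from 1072 reads of 54 hosts. In the alveolar library it was 2.65% (2.46 to 2.84), from 750 reads of 51 hosts. The canalicular share lay below those of its neighbours on either side, and the alveolar interval overlapped those of the other 3 libraries.

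The Arhgap and Srgap genes, which encode GAPs of cytoskeletal GTPases, numbered 22 hosts. Their share of junction reads was 1.72% at the pseudoglandular stage, then 1.29% and 1.33%, and 1.09% at the alveolar stage. Without Arhgap5 the share of this family was 0.854, 0.682, 1.01 and 0.889%, which has no decline from the first library to the last. The 25 Rab regulators, with 15 Tbc1d and 10 Dennd hosts, went the other way, at 0.389, 0.352, 0.595 and 0.639%. Within them the Dennd hosts, which are Rab exchange factors, held 0.173, 0.192, 0.407 and 0.381%. Their later 2 libraries were the higher ones.

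The other families varied less. The 15 Arhgef and Dock hosts, which encode exchange factors, held 0.323, 0.340, 0.415 and 0.360% of junction reads, and the 12 Ras and Rap regulators 0.454, 0.407, 0.556 and 0.466%. The 3 Arf GAPs held 0.0654, 0.0769, 0.0691 and 0.0918%. Sorted by activity instead, the 47 GAP hosts went from 2.44% in the pseudoglandular library to 1.87% in the alveolar, and the 30 GEF hosts from 0.512 to 0.780%. Without Arhgap5 the GAP share was 1.57% and 1.67% in these 2 libraries. The GEF rise, from 133 to 221 reads, lay mostly in Dock4 (7 to 41), Dennd4a (5 to 35) and Dennd1b (23 to 42). The Arhgef hosts went the other way, from 35 to 24 reads.

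**Figure D1:**
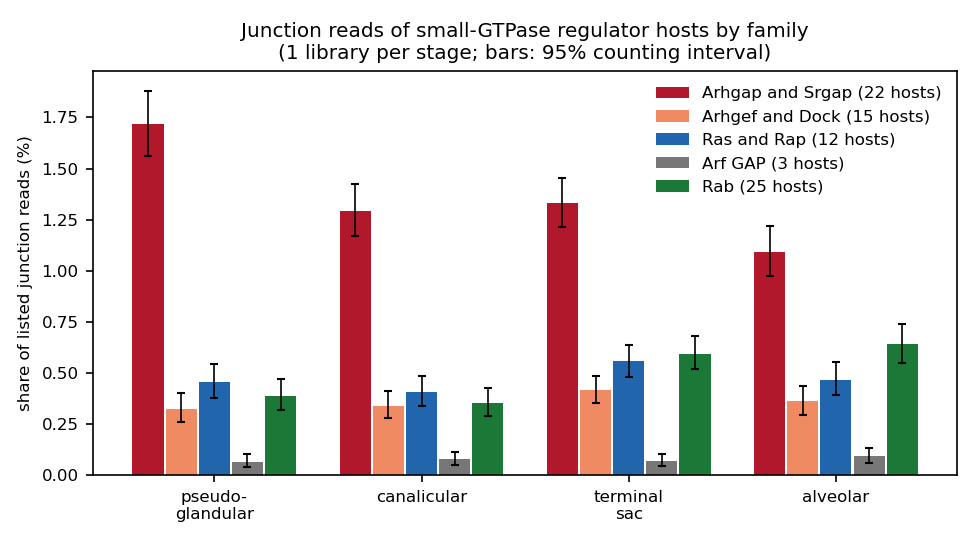
Share of listed junction reads (y axis, %) held by each of the 5 families in the 4 libraries (x axis), with bars from 0 and 95% counting intervals. The Arhgap and Srgap hosts led in every library and went from 1.72 to 1.09%, while Rab regulators stood at 0.595 and 0.639% in the later 2 libraries against 0.389 and 0.352% in the earlier 2.

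Reads were concentrated in few genes. Arhgap5, Rasa2, Arhgap12 and Arhgap10 held 1640 of the 3359 member reads, or 48.8%. Their part of the member reads was 61.9, 55.3, 44.9 and 34.5% in order of stage. The hosts outside these 4 held 1.12, 1.11, 1.63 and 1.73% of all junction reads in the same order. Of the 77 hosts, 24 had 20 or more reads over the 4 libraries, 15 had 10 to 19 and 38 had under 10, of which 9 had 2 reads in all. A pair of libraries was compared for a host where the pair held 10 or more junction reads. By that minimum 34 hosts could be compared in at least 1 of the 4 pairs, 17 in all 4 pairs and 43 in none.

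A host was called higher or lower when its share of junction reads differed at least 2-fold and the exact interval of the ratio excluded 1. Alveolar against pseudoglandular compares the latest with the earliest stage, and the 3 consecutive steps place the differences between them. The 4 pairs share libraries and are not independent of each other. Hosts that pass the minimum mainly through the library where they are high had to differ, so the counts below are descriptions.

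Among Arhgap and Srgap hosts, Arhgap5 had the most reads and the clearest course. It encodes a GAP that acts in growth and morphogenesis. Arhgap5 had 224 junction reads at the pseudoglandular stage, then 191 (canalicular), 115 (terminal sac) and 57 (alveolar), which is 86.2, 61.2, 31.8 and 20.1 per 10000 listed reads. Each library was lower than the one before it, with intervals of the ratio that excluded 1. The alveolar share was 4.29-fold lower (3.19 to 5.84) than the pseudoglandular, while no single step reached 2-fold. Scaled by non-junction reads, the terminal sac share was 2.02-fold lower than the canalicular and was called.

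The next GAPs of this family by reads, Arhgap12 and Arhgap10, were called in no pair. Arhgap12, a GAP of Rac1 at cell junctions, had 75, 78, 103 and 74 reads in order of stage. Its alveolar over pseudoglandular ratio was 0.905 (0.647 to 1.26). Arhgap10, of the GRAF group of GAPs with a membrane-bending BAR domain, had 77, 56, 97 and 46 reads. Its pseudoglandular and terminal sac libraries were the higher ones, at 29.6 and 26.8 per 10000 against 17.9 and 16.2. The alveolar over pseudoglandular ratio of 0.548 (0.372 to 0.800) excluded 1 without reaching 2-fold.

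Arhgap21, a Golgi-associated GAP of Cdc42, showed the opposite course to Arhgap5. It had 3 reads at the pseudoglandular stage, then 17 (canalicular), 31 (terminal sac) and 33 (alveolar). The first library stood apart from the others. Its share was 4.72-fold higher (1.36 to 25.1) in the canalicular than in the pseudoglandular library and 10.1-fold higher (3.16 to 51.4) in the alveolar.

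Arhgap42, a GRAF-group GAP known from vascular smooth muscle, had 0, 6, 4 and 17 reads. The alveolar share was at least 5.20-fold higher than the pseudoglandular, with 3 reads set for the library at 0, and 5.42-fold higher (1.77 to 22.2) than the terminal sac. The remaining GRAF member, Arhgap26, had 4, 2, 6 and 13 reads and a ratio of 2.98 (0.921 to 12.5) between the alveolar and pseudoglandular libraries, which was not called. It was called higher, 3.35-fold, when libraries were scaled by non-junction reads.

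Arhgap32, a GAP of Cdc42 described mainly in neurons, peaked in 1 library. It had 20, 17, 58 and 23 reads, and the terminal sac share was 2.95-fold higher (1.69 to 5.40) than the canalicular. The alveolar share was 0.506 times the terminal sac share (0.298 to 0.833), just short of 2-fold. Srgap1, a GAP that acts downstream of the Slit receptor Robo, was even, with 15, 20, 15 and 19 reads. Arhgap18 had 0, 5, 9 and 7 reads and was called in no pair.

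**Figure D2:**
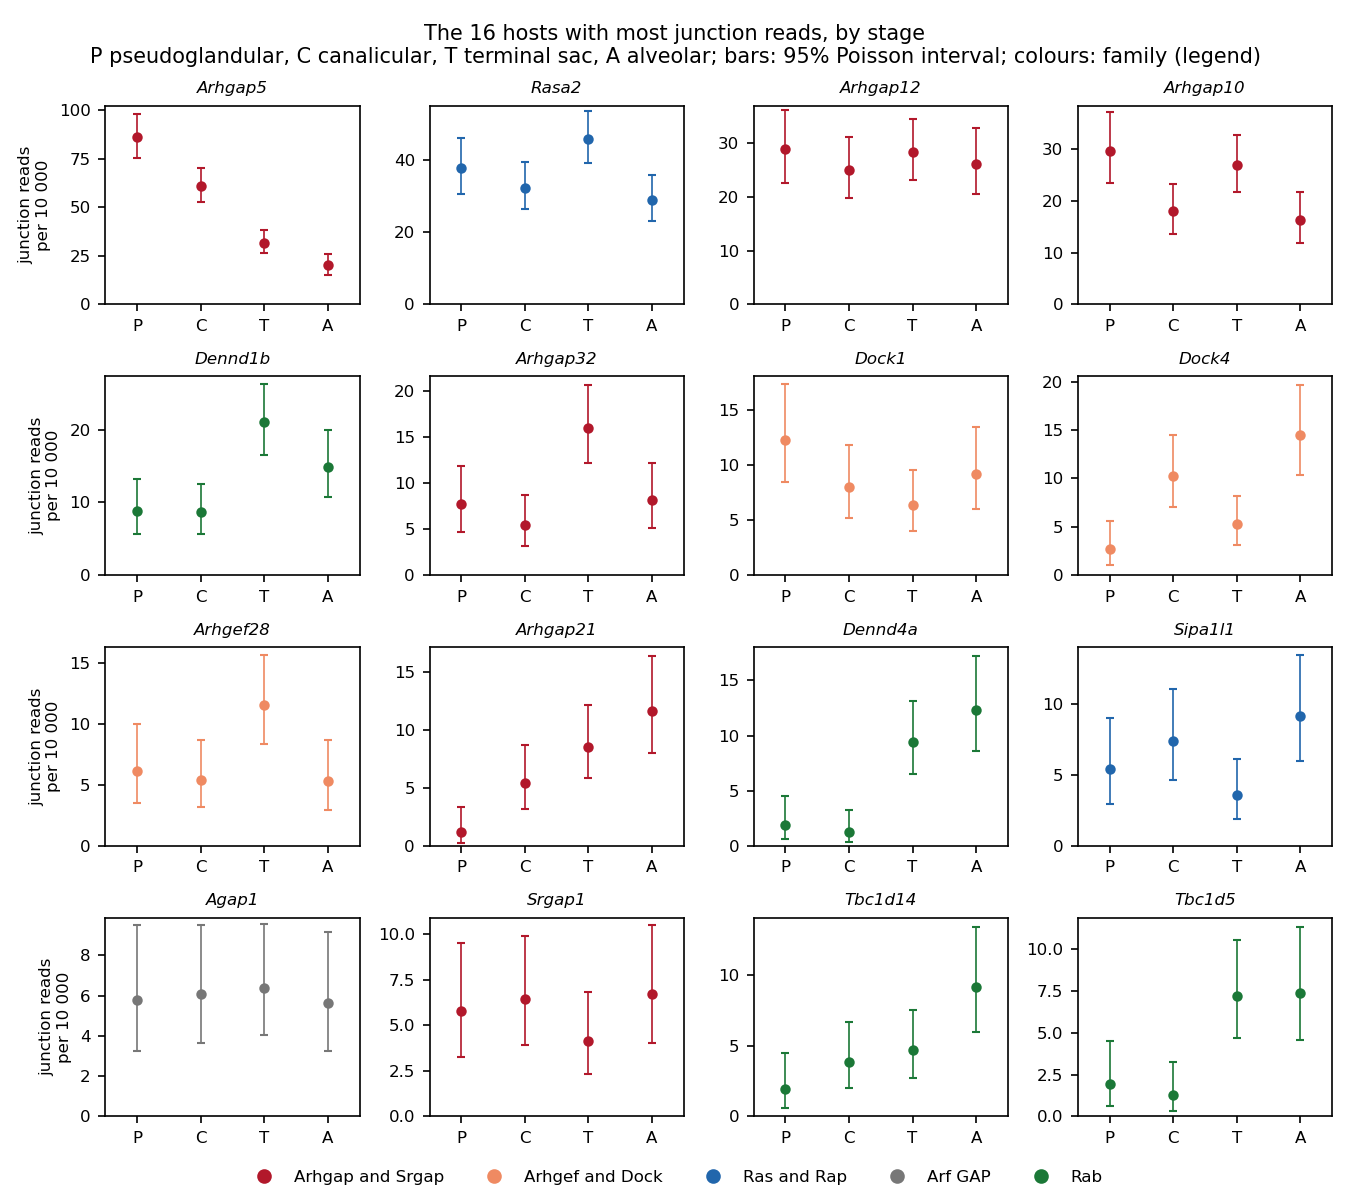
Junction reads per 10000 listed junction reads (y axes, scaled per panel and starting at 0) in the 4 libraries (x axes) for the 16 hosts with most reads, with 95% Poisson intervals and colours by family. Arhgap5 stood at 86.2 in the pseudoglandular and 20.1 in the alveolar library, Dennd1b and Arhgap32 peaked in the terminal sac library, and Arhgap21, Dennd4a and Tbc1d14 were highest in the alveolar.

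Among Arhgef and Dock hosts, Dock4 was called in 3 of the 4 pairs. It encodes an exchange factor of Rac that also acts on Rap. Dock4 had 7 reads at the pseudoglandular stage, then 32 (canalicular), 19 (terminal sac) and 41 (alveolar), so that its course went up, down and up again. The canalicular share was 3.80-fold higher (1.65 to 10.2) than the pseudoglandular, and the alveolar share was 2.75-fold higher (1.56 to 5.02) than the terminal sac. Between the ends of the series the ratio was 5.37 (2.39 to 14.2). Its relative Dock1, a Rac exchange factor that acts with ELMO proteins in engulfment and migration, had 32, 25, 23 and 26 reads and was called in no pair.

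Arhgef28, an exchange factor that binds focal adhesion kinase, was highest in the terminal sac library, with 16, 17, 42 and 15 reads. That library was 2.13-fold higher (1.19 to 3.997) than the canalicular, and the alveolar was 2.19-fold lower (1.19 to 4.26) than it. Dock10, a Cdc42 and Rac exchange factor described in lymphocytes, had 2, 2, 11 and 2 reads. Its terminal sac share was 4.75-fold higher (1.04 to 44.1) than the canalicular, a call lost at a ratio of 4.53 when libraries were scaled by non-junction reads. The call rests on 2 canalicular reads, fewer than the 3 set for a library at 0. The Dock10 circle of exons 5 to 7, with 0 and 11 reads in this pair, was not called. Arhgef7, a Rac and Cdc42 exchange factor at focal adhesions, had 6, 10, 20 and 7 reads, and Arhgef12, an exchange factor downstream of heterotrimeric G proteins, had 5, 12, 6 and 0. Neither was called in a pair that could be compared, and Arhgef12 had too few reads to be compared with the alveolar library.

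Rasa2, a GAP that turns off Ras, led the Ras and Rap regulators with 447 of their 578 reads. It had 98, 101, 166 and 82 reads in order of stage, or 37.7, 32.4, 45.9 and 28.9 per 10000. The terminal sac share was 1.42 times the canalicular (1.10 to 1.84) and the alveolar share 0.630 times the terminal sac (0.478 to 0.826), both under 2-fold. Sipa1l1, a GAP of Rap, had 14, 23, 13 and 26 reads. The alveolar share was 2.55-fold higher (1.27 to 5.41) than the terminal sac. Rasal2, another Ras GAP, had 0, 3, 6 and 6 reads. Rapgef5, a Rap exchange factor, had none in the earlier 2 libraries and 3 and 6 in the later 2. The other hosts of this family had under 10 reads.

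Arf GAPs were few. Agap1, which acts on Arf proteins and binds the AP-3 coat, was even across the series, with 15, 19, 23 and 16 reads. Its 4 ratios lay between 0.888 and 1.05. Asap2, an Arf GAP that binds focal adhesion kinases, had 2, 5, 2 and 8 reads, and the alveolar share was 5.10-fold higher (1.02 to 49.3) than the terminal sac. That call rests on 2 terminal sac reads, fewer than the 3 set for a library at 0. Asap1 had 2 reads in all.

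Among Rab regulators, Dennd1b, an exchange factor of Rab35, had 23, 27, 76 and 42 reads, and the terminal sac share was 2.43-fold higher (1.55 to 3.92) than the canalicular. Dennd4a, an exchange factor of Rab10, had 5, 4, 34 and 35 reads. The earlier pair of libraries was low and the later pair high. Its terminal sac share was 7.34-fold higher (2.62 to 28.5) than the canalicular, and the alveolar was 6.42-fold higher (2.505 to 20.99) than the pseudoglandular. Dennd4c, also an exchange factor of Rab10, had 6, 13, 23 and 6 reads, and its alveolar share was 3.004-fold lower (1.19 to 9.02) than the terminal sac. The 2 Rab10 exchange factors thus ended the series in different places, at 12.4 and 2.12 reads per 10000 in the alveolar library.

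The Tbc1d genes encode proteins with the TBC domain of Rab GAPs. Tbc1d5, which binds the retromer coat of endosomes, had 5, 4, 26 and 21 reads, the same low then high course as Dennd4a. Its terminal sac share was 5.61-fold higher (1.95 to 22.1) than the canalicular and its alveolar share 3.85-fold higher (1.41 to 13.1) than the pseudoglandular. Dennd5a had 6, 4, 4 and 10 reads and was not called. Tbc1d14, a regulator of autophagy and recycling endosomes, had 5, 12, 17 and 26 reads and was 4.77-fold higher (1.80 to 15.9) in the alveolar than in the pseudoglandular library. Tbc1d1, which controls glucose transporter traffic in muscle, went down, with 25, 10, 6 and 9 reads. It was 3.004-fold lower (1.39 to 7.01) in the canalicular and 3.03-fold lower (1.37 to 7.37) in the alveolar than in the pseudoglandular library. The cardiac and striated muscle hosts given above were also highest in the pseudoglandular library, and their part in the Tbc1d1 values was not tested.

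The 15 hosts with 10 to 19 reads were mostly listed in 3 or fewer libraries. Tbc1d23, a Golgi protein of the TBC group, had 4, 6, 0 and 7. Arhgap31, a GAP of Cdc42 and Rac, had 0, 0, 11 and 2 reads, and Dennd6a, an exchange factor of Rab14, had 0, 0, 10 and 2, so both were listed in the later 2 libraries only. Arhgap19, a GAP of dividing cells, had 7, 4, 0 and 0 reads and was listed in the earlier 2. None of these 4 was called in any pair. Over all members, 24 hosts (31.2%) were listed in all 4 libraries, against 22.8% of all hosts, and 21 (27.3%) in 1, against 42.7%.

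Counted by host, more of the regulators were called higher than lower in the later library of each of the 4 pairs. In 2 pairs the share called higher was near that of all hosts. It was 9.52% against 8.89% for canalicular against pseudoglandular, and 13.8% against 12.1% for alveolar against terminal sac. For canalicular against pseudoglandular, 2 hosts were lower with Rapgef6 counted, and by single circle 1 was higher and 3 were lower. For alveolar against pseudoglandular, 6 of 25 members were higher (24%) and 2 lower (8%), against 12.9% higher and 16.6% lower among all 1083 hosts compared. The higher ones were Arhgap21, Dennd4a, Dock4, Arhgap42, Tbc1d14 and Tbc1d5, and the lower ones Arhgap5 and Tbc1d1. The median log2 ratio was 0.61 for the 25 members and -0.12 for all hosts.

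Between the canalicular and pseudoglandular libraries 2 of 21 members were higher (Arhgap21 and Dock4) and 1 was lower (Tbc1d1), with 8.89% higher and 11.3% lower among all hosts. Those background shares became 15.02 and 8.89% when libraries were scaled by non-junction reads, with the same 3 members called. Median log2 ratios were -0.03 and 0.02. For terminal sac against canalicular, 6 of 27 members were higher and 0 lower, against 12.4 and 12.2% of all hosts. Those 6 were Dennd4a, Tbc1d5, Dock10, Arhgap32, Dennd1b and Arhgef28, and the medians were 0.58 and 0.03. With non-junction scaling the split was 5 and 3, since Arhgap5, Dock4 and Sipa1l1 were then called lower.

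In the last step, 4 of 29 members were higher in the alveolar than in the terminal sac library (Arhgap42, Asap2, Dock4 and Sipa1l1) and 2 were lower (Dennd4c and Arhgef28), with 12.1 and 12.5% among all hosts. The medians were -0.01 and -0.23. This split became 6 and 2 with non-junction scaling and 7 and 2 with median-of-ratios scaling, where Arhgap26, Dennd5a and Tbc1d14 were added. Leaving out circRNAs with direct repeats at their ends or few alignment patterns added the same 3 hosts.

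**Figure D3:**
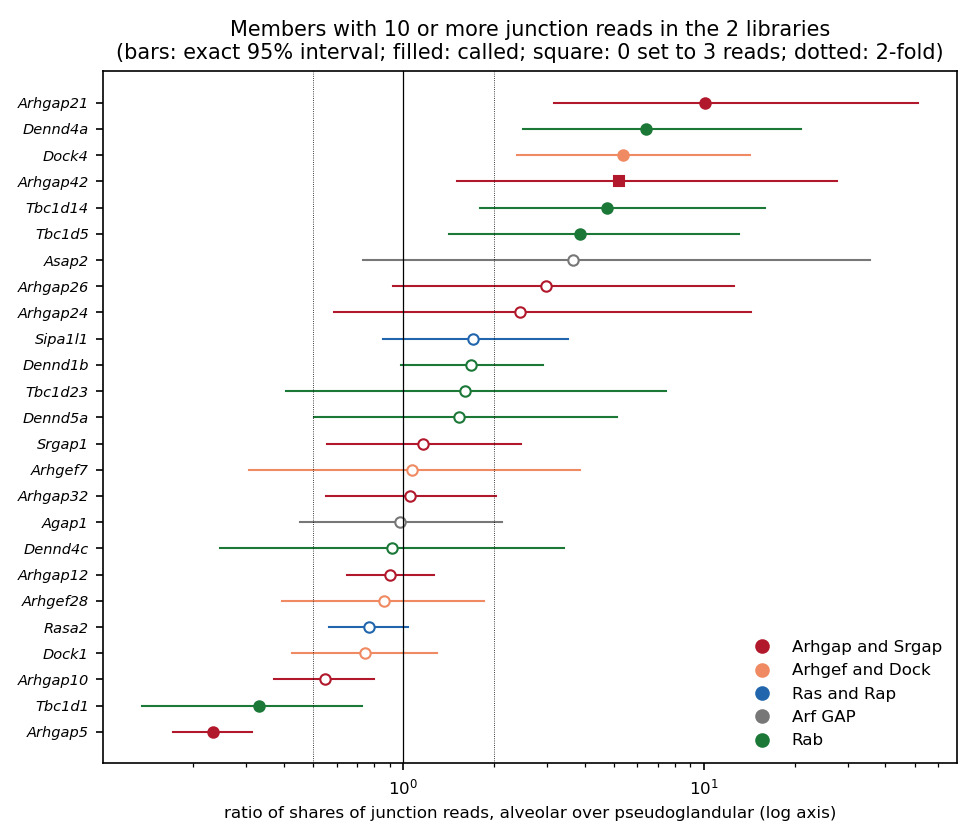
Ratio of shares of junction reads, alveolar over pseudoglandular (x axis, log scale), with exact 95% intervals for the 25 members that had 10 or more reads in the pair. Filled points are the 6 called higher, from Tbc1d5 at 3.85 to Arhgap21 at 10.1, and the 2 called lower, Tbc1d1 and Arhgap5. The square marks Arhgap42, a lower bound.

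Single circles showed which exons carried these host totals. The circle with most reads was the large exon of Arhgap5 (chr12:52516079-52519967, 3889 bases), which begins 2 bases inside the annotated exon and holds the start codon and residues 1 to 1240 of 1503. Its start lies in the 5′ UTR. It had 180, 161, 89 and 52 reads in order of stage, and it led the host in every library. The alveolar share of this circle was 3.77-fold lower (2.76 to 5.24) than the pseudoglandular. A longer Arhgap5 circle that adds the next exon had 38, 25, 22 and 5 reads and was 8.29-fold lower (3.26 to 27.0).

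Rasa2 gave 9 circles, 5 of which begin at exon 2. The circle of exons 2 to 5, with 394 bases and residues 44 to 175 of 847, had 54, 69, 114 and 64 reads. The circle of exons 2 to 4, which lacks 1 exon at its end, had 23, 22, 35 and 9 reads. Its part of the reads of both was 29.9, 24.2, 23.5 and 12.3%, lowest in the alveolar library, where its share of junction reads was 2.79-fold lower (1.24 to 6.84) than in the pseudoglandular. A still longer circle of exons 2 to 9 had 9, 6, 2 and 2 reads and was 4.91-fold lower (1.02 to 46.7). The lead circle was called in no pair by its share.

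Arhgap12 was carried by exons 2 to 3, which hold the start codon and residues 1 to 226 of 838, with 64, 65, 84 and 63 of its reads. Arhgap10 was carried by exons 14 to 18 (residues 410 to 572 of 786), with 50, 38, 50 and 29. A second Arhgap10 circle that runs on to exon 19 had 4, 11, 8 and 3 reads. All 17 Arhgap10 circles shared an end with another of the same host.

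Arhgap21 reads came mainly from exons 16 to 21 (567 bases, a multiple of 3, residues 1154 to 1342 of 1945), with 0, 9, 28 and 33 reads. This circle gave all Arhgap21 reads in the alveolar library and none in the pseudoglandular, which makes it at least 10.1-fold higher. It is flanked by introns of 267 and 313 bases, short against the medians of 9553 and 7346.5 bases for the member circles upstream and downstream. A different Arhgap21 circle, of exons 6 to 8, gave 6 of the 15 canalicular reads that the 2 circles held together.

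Dennd1b used 2 leading circles that share the end of exon 9. The circle of exons 4 to 9 had 5, 12, 23 and 10 reads and that of exons 6 to 9 had 11, 3, 22 and 13. The shorter one held 68.8, 20, 48.9 and 56.5% of the reads of both, so neither led in every library. It was 4.41-fold lower (1.16 to 24.6) in the canalicular than in the pseudoglandular library and 6.33-fold higher (1.90 to 33.0) in the terminal sac than in the canalicular. The 2 circles have 486 and 316 spliced bases, of which 486 is a multiple of 3.

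Arhgap32 had 2 circles from different stretches of the gene that moved apart at the end of the series. Exons 6 to 9 (residues 164 to 307 of 2089) had 8, 5, 30 and 3 reads, and exons 14 to 18 (residues 468 to 694) had 4, 4, 8 and 11. The first was 5.18-fold higher (1.99 to 17.1) in the terminal sac than in the canalicular library and then 7.84-fold lower (2.44 to 40.1) in the alveolar. The second held 21.1% of the reads of both in the terminal sac library (interval 9.55 to 37.3) and 78.6% in the alveolar (49.2 to 95.3), intervals that do not overlap. Another circle, exons 6 to 10, had 4, 5, 8 and 7 reads.

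**Figure D4:**
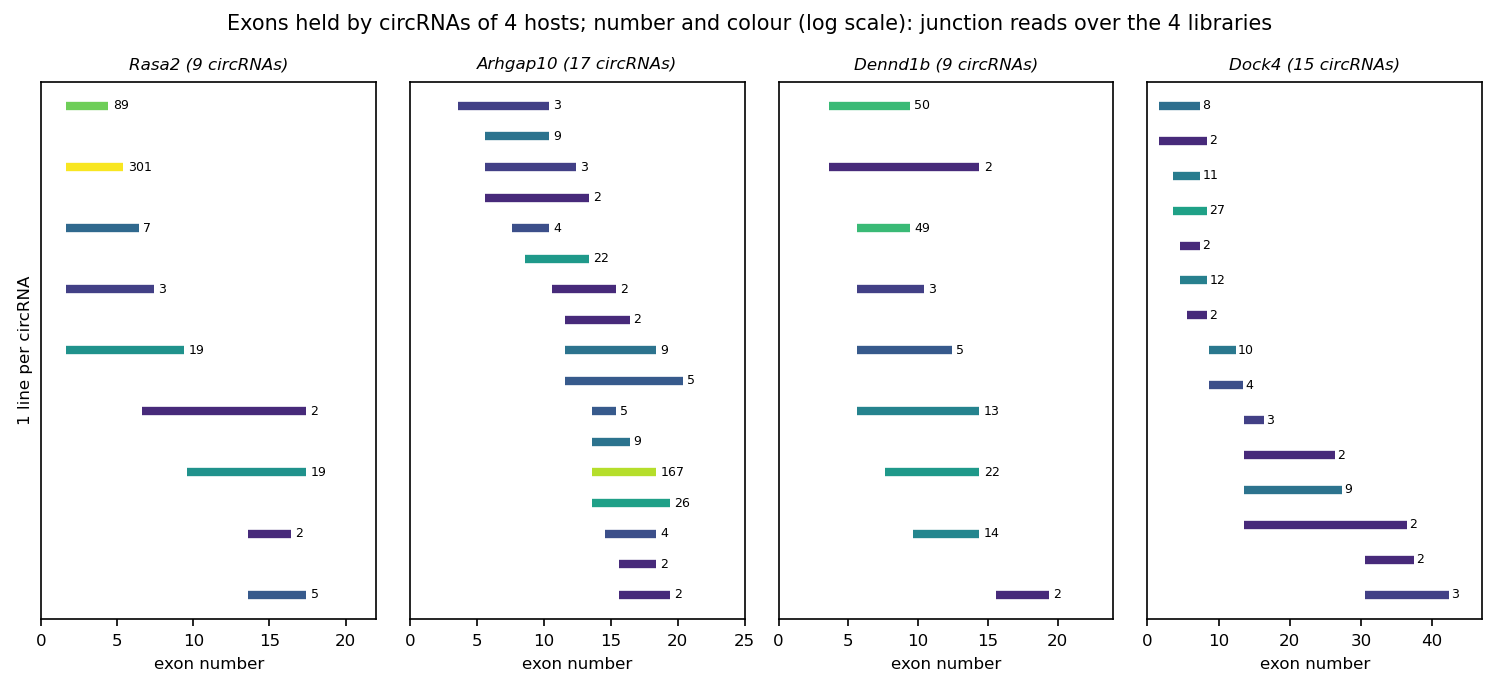
Exons (x axis, numbered in the transcript that holds the leading circle) held by each circRNA with both ends at exon boundaries of that transcript, 1 line per circRNA, for Rasa2, Arhgap10, Dennd1b and Dock4. Numbers are junction reads over the 4 libraries, also shown by colour. In Rasa2 the line of exons 2 to 5 had 301 reads and that of exons 2 to 4 had 89, while the 15 Dock4 circles each had 27 or fewer.

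Arhgef and Dock hosts spread their reads over many circles. Dock1 gave 19 circles, the most of any member, followed by Arhgap10 with 17, Dock4 with 15, Dennd4a with 12, and Arhgap12, Dennd1b and Tbc1d5 with 10 each. The leading Dock1 circle, exons 12 to 22, had 4, 3, 12 and 4 reads. The Dock1 circle of exons 20 to 23 had 11, 0, 0 and 11 reads and carries the same 7 bases at both ends, where the join cannot be placed to the base. For Dock4 the circle of exons 4 to 8 (residues 55 to 234 of 1978) had 0, 5, 6 and 16 reads and was at least 4.89-fold higher in the alveolar than in the pseudoglandular library. In the canalicular library the Dock4 circle of exons 5 to 8 led it, with 66.7% of the 15 reads of both.

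The exon 2 circles of Sipa1l1 and Tbc1d14 hold the start codon of their genes. Sipa1l1 exon 2, 1838 bases long with residues 1 to 500 of 1782, had 6, 11, 5 and 22 reads. It was 5.62-fold higher (2.07 to 18.98) in the alveolar than in the terminal sac library. Tbc1d14 exon 2, with 742 bases and residues 1 to 242 of 694, had 5, 4, 3 and 18 reads, and was 7.66-fold higher (2.24 to 40.6) in the same step. Set against the exon 2 circle, Sipa1l1 exons 3 to 5 held 8.33% (1.03 to 27.0) of the 24 alveolar reads of both and 50% (18.7 to 81.3) of the 10 terminal sac reads, intervals that overlap. Tbc1d14 exons 4 to 7 held 10% (1.23 to 31.7) of 20 and 70% (34.8 to 93.3) of 10.

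Calls also fell on leading circles of other hosts. Dennd4a exon 23, a single exon of 1097 bases, had 3, 0, 9 and 15 reads, a ratio of 4.59 (1.30 to 24.7) between the alveolar and pseudoglandular libraries. Tbc1d5 exons 10 to 13 had 0, 0, 8 and 16 reads and was at least 4.89-fold higher. Arhgef28 exons 5 to 9 had 2, 0, 18 and 4 reads, at least 5.18-fold higher in the terminal sac than in the canalicular library and 3.53-fold lower (1.16 to 14.3) in the alveolar than in the terminal sac. Agap1 exons 7 to 9 had 3, 16, 13 and 7 reads and was 4.44-fold higher (1.27 to 23.8) in the canalicular than in the pseudoglandular library, although the host as a whole was even. Tbc1d1 exons 8 to 12 had 11, 3, 0 and 9 reads and was 4.41-fold lower (1.16 to 24.6) in that step.

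In all, 6 of 28 member circles were higher and 4 lower in the alveolar than in the pseudoglandular library, against 12.2 and 17.4% of all circRNAs compared. For the canalicular over the pseudoglandular library 1 of 20 was higher and 3 were lower, against 8.16 and 9.83%. From canalicular to terminal sac 4 of 34 were higher and 1 lower, against 8.94 and 11.2%. In the step to the alveolar library 5 of 37 were higher and 4 lower, against 10.5 and 11%.

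The junction ratio sets a circle against linear reads at the same ends. It is 2 times the junction reads over 2 times the junction reads plus the non-junction reads, in percent, and is a ratio within a library. Summed over members it was 3.63, 3.48, 3.70 and 3.58% in order of stage, against 1.74, 1.96, 1.87 and 1.95% over all circRNAs. Sums of this kind, also by host, count linear reads at an end shared by listed circles once for each circle. The median ratio per circRNA was 2.9, 2.85, 2.5 and 2.7% for members, against 2.3, 2.1, 2.7 and 2.4% for all, so that the member median was the lower one in the terminal sac library. Among hosts with 20 or more reads, taken over the 4 libraries, Rasa2 had the highest ratio at 23.6%, then Srgap1 at 11.1%, Tbc1d14 at 10.6%, Arhgap12 at 9.86% and Arhgap5 at 9.83%. The lowest were Arhgef12 at 0.403%, Dennd5a, a DENN-domain protein that binds Rab6, at 0.639%, Arhgap18 at 0.782%, Dock1 at 0.878% and Tbc1d1 at 1.44%. The order differed by library: Tbc1d14 at 23.8% stood above Rasa2 at 19.3% in the pseudoglandular library, and Srgap1 at 34.5% above Rasa2 at 29.5% in the terminal sac library. Circles with a shared end numbered 9 of 9 in Rasa2, 0 of 3 in Srgap1, 16 of 19 in Dock1 and 0 of 5 in Arhgef12. The part of this repeated counting in the order of hosts was not tested.

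Rasa2 exons 2 to 5 had the highest ratio of the leading circles, at 35.9, 46.6, 65.3 and 57.7%. The odds of junction to non-junction reads were 2.42-fold higher (1.57 to 3.75) in the alveolar than in the pseudoglandular library. Its share of junction reads was not called in that pair. Non-junction reads at its ends numbered 193, 158, 121 and 94. The companion circle of exons 2 to 4 stood at 21.005, 18.5, 26.4 and 12.0%.

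The large exon of Arhgap5 went from 29.4% through 23.9 and 16.6% to 17.1%, with odds 2.01-fold lower (1.45 to 2.78) in the alveolar than in the pseudoglandular library. The longer Arhgap5 circle went from 19.4 to 3.77%, 5.65-fold lower in odds (2.28 to 14.0). Both the share of junction reads and the junction ratio of these circles were thus lower in the alveolar library. Over all Arhgap5 circles the ratio was 12.2, 10.7, 6.04 and 13.0%, and it was not called between these libraries.

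Arhgap32 exons 6 to 9 had a terminal sac peak in its ratio too, at 11.3, 6.17, 36.8 and 3.47%. The odds were 8.17-fold higher (3.19 to 20.95) in the terminal sac than in the canalicular library and 14.1-fold lower (4.54 to 43.8) in the alveolar than in the terminal sac. Srgap1 exons 2 to 3 stood at 13.8, 19.1, 34.5 and 13.3% while its reads were even. Its odds were 3.41-fold lower (1.61 to 7.23) in the alveolar than in the terminal sac library. Sipa1l1 exon 2 had 3.31, 4.89, 3.16 and 10.6%, with odds 3.26-fold higher (1.34 to 7.89) in the alveolar than in the pseudoglandular library.

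Of 25 member circles with reads in both libraries, 2 had a higher and 2 a lower ratio in the alveolar than in the pseudoglandular library, against 14.7 and 7.64% of all circRNAs compared. For the canalicular over the pseudoglandular library it was 1 higher and 1 lower of 17, against 10.9 and 4.86%. From canalicular to terminal sac 6 of 29 were higher and 0 lower, against 20.1 and 2.66%. From terminal sac to alveolar 1 of 33 was higher and 10 were lower, against 3.6 and 19.7%. The median log2 odds ratio of members in these 4 pairs, in the order given, was 0.07, -0.30, 0.65 and -0.49, against 0.24, 0.24, 0.55 and -0.50 for all circRNAs. For the canalicular over the pseudoglandular library the 2 medians differed in sign.

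A host's ratio sums over the circles listed in a library, so it also moves with which circles are listed. By this measure 4 of 24 members had a higher ratio in the alveolar than in the pseudoglandular library, against 15.2% of all hosts, and 1 had a lower ratio, against 8.13%. The higher ones were Arhgap21 with 1.38 and 17.1%, each from 1 circle and not the same one, Arhgap24, a Rac GAP that binds filamin, Sipa1l1 and Tbc1d1. The lower one was Tbc1d14. Tbc1d1 had 6 circles listed in the pseudoglandular and 1 in the alveolar library, and the circle in both, exons 8 to 12, was not called, with an odds ratio of 1.24 (0.521 to 2.95). Tbc1d14 had 1 circle listed in the pseudoglandular and 5 in the alveolar library, and its exon 2 circle was not called either, at 0.708 (0.254 to 1.97).

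Across the consecutive steps the host ratios changed in both directions. For canalicular against pseudoglandular, 1 of 21 members was higher (Srgap1) and 2 lower (Arhgap12 and Dennd1b), against 8.84 and 8.07% of all hosts. By circle, Srgap1 exons 2 to 3, at an odds ratio of 1.48 (0.648 to 3.38), was not called. Arhgap12 exons 2 to 3, at 0.821 (0.564 to 1.19), was not called either. Dennd1b exons 6 to 9 was lower, at 0.245 (0.0731 to 0.818). For terminal sac against canalicular, 5 of 24 were higher (Arhgap21, Arhgap32, Dock1, Dock10 and Srgap1), against 18.9%, and 1 was lower, against 5.18%. That one was Dock4, whose odds were 2.97-fold lower (1.68 to 5.24) at ratios of 6.23 and 2.16%. Neither of the Dock4 circles compared in this pair was called. Exons 4 to 8 had an odds ratio of 0.797 (0.252 to 2.52) and exons 9 to 12 one of 0.457 (0.135 to 1.55). For alveolar against terminal sac, 3 of 29 were higher (Arhgap21, Arhgap5 and Sipa1l1), against 7.02%, and 6 lower, against 14.3%. The leading circles of Arhgap5 and Arhgap21 were not called by their ratio in this pair: the large exon of Arhgap5 had an odds ratio of 1.04 (0.728 to 1.49) and Arhgap21 exons 16 to 21 one of 1.11 (0.659 to 1.88). The longer Arhgap5 circle was 2.82-fold lower in odds (1.10 to 7.26). The lower ones were Agap1, Arhgap31, Arhgap32, Arhgef7, Dock10 and Srgap1.

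**Figure D5:**
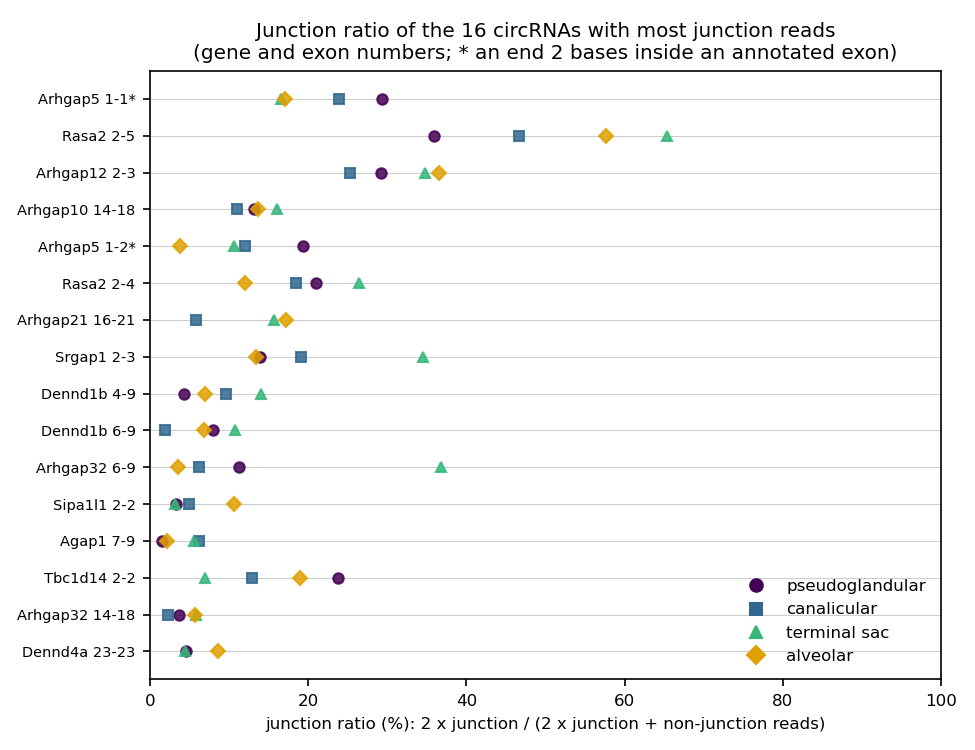
Junction ratio (x axis, %) of the 16 member circRNAs with most reads, named by gene and exon numbers, with 1 point per library. A point is missing where the library lists no read of the circle. Rasa2 2-5 spans 35.9 to 65.3%, the Arhgap5 large exon spans 16.6 to 29.4% with the pseudoglandular library highest, and Arhgap32 6-9 stands out in the terminal sac library at 36.8%.

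Features that the choice by symbol did not use were set beside those of all circRNAs with a host. Members gave a mean of 4.14 circRNAs per host (median 3), against 2.82 (median 2) over all hosts, and a median of 10 reads per host against 6. Both ends lay at exon boundaries of 1 transcript in 85.3% of the 319 member circRNAs and 77.5% of all. By reads the order was the other way, with 78.6% of member reads (2640 of 3359) and 84.8% of all reads in such circles. That order turned on the large exon circle of Arhgap5, with 482 reads. It was not counted at boundaries because it begins 2 bases inside the annotated exon. The median circle held 5 exons in both, with 577 spliced bases against 651, and spanned 14556 bases of the genome against 10946. Upstream flanking introns had a median of 9553 bases against 6912.5, and downstream ones 7346.5 against 5177.5. These are descriptions with no test, and circles of 1 host are not independent.

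Exon 2 was the first exon of 23.2% of member circles at boundaries, against 30.1% of all, and 11.4% held the start codon, against 15.2%. Of 241 member circles made only of coding sequence, 83 (34.4%) had a length that is a multiple of 3, against 40.3% of all. Within hosts, 184 of 319 circles (57.7%) shared an end with another circle of the same gene. In 7 of the 24 hosts with 20 or more reads the same circle led every library in which the host was listed: Arhgap5, Rasa2, Arhgap12, Arhgap10, Sipa1l1, Agap1 and Srgap1. Shared ends and constant leaders have no share over all hosts beside them and are not read as particular to the members. Listing was sparse, with 219 member circles (68.7%) found in 1 library, against 73.9% of all circRNAs with a host. The 24 found in all 4 libraries (7.52%, against 6.85% of all) held 58.1% of member reads, against 51.3% of all reads.

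Circles whose 2 ends repeat the same 6 or more bases (repeat-end) numbered 5 of 319 among members and 295 of 12941 among all circRNAs with a host. Those of members came from Dock1, Arhgef12, Arhgap31, Dock9 and Arhgap10 and held 54 reads, 1.61% of member reads. Repeat-end circRNAs and those with few alignment patterns together held 6.997% of all reads, which is not a share of repeat-end circRNAs alone. No member circle had few alignment patterns. Both thresholds were set after the data had been seen.

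Other genes of the same pathways were taken from lists that leave out the 12 prefixes. For alveolar against pseudoglandular, 3 of 11 further regulators of cytoskeletal GTPases were higher and 0 lower, against 12.9 and 16.6% of all hosts. The exchange factor Prex2, also an endothelial marker here, had 2, 5, 55 and 63 reads. Vav3, an exchange factor of Rac, was 7.03-fold higher (2.12 to 36.6), and Akap13, an exchange factor that anchors protein kinase A, 2.62-fold (1.06 to 7.33). Of 11 further Arf and Rab regulators 2 were higher, Arap2 by at least 5.20-fold and Psd3 by 2.12-fold (1.15 to 4.08), and Rabgap1l was at least 3.998-fold lower. None of 8 further Ras, Rap and Ral regulators was called.

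Few of the GTPases themselves hosted circles. Of 61 genes in that list 19 were listed and 3 had enough reads in the same pair. Of these 1 was higher, Arl15 by at least 6.11-fold, and 0 lower, against 12.9 and 16.6% of all hosts. Rras2, a Ras relative, went from 8 reads in the canalicular library to 60 in the terminal sac, 6.48-fold higher (3.08 to 15.7). With 23 reads in the alveolar library it was then 2.04-fold lower (1.25 to 3.46) than in the terminal sac. Of 7 effectors compared 2 were higher in the alveolar library and 0 lower, against the same 12.9 and 16.6% of all hosts. They were Cdc42bpa, a kinase that binds Cdc42, at least 8.25-fold higher, and the Rap effector Radil, 3.48-fold higher (1.26 to 11.9). Median log2 ratios of the lists in this pair were -0.39 for the cytoskeletal group, 0.37 for the Ras group, 0.46 for the Arf and Rab group, 0.40 for the GTPases and 0.71 for the effectors.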

How the data were processed

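Each deposited file is a list of circRNAs with the column names of CIRI output. Tools in the submitters' processing notes, given without roles, are BWA, HISAT2 2.0.5, HTSeq, StringTie and cutadapt, with build mm10. The authors deposited raw counts of both kinds of read and the junction ratio as a fraction, per the file headers, and that ratio was recomputed with 0 mismatches. The deposited alignment patterns, read from the files, are scores used only to mark circRNAs with few patterns. The lists hold only circRNAs with 2 or more reads. The files name 1 flow-cell lane for all libraries. Further filters are not given in the sources used here.

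Counts were summed by deposited Ensembl host, of which 4647 of 4653 matched GENCODE M21. Exon numbers, introns and residues came from M21 transcripts. The 67 circRNAs with 2 deposited hosts were left out, 1 of them (2 reads) with a member host, Rapgef2. Strand is not a column of the files and was taken from the gene.

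Depth was 25983, 31218, 36156 and 28332 junction reads in order of stage, so 3 reads correspond to 1.15, 0.961, 0.830 and 1.06 per 10000. Ratios of shares carry exact conditional binomial 95% intervals, shares Clopper-Pearson, levels Poisson, and junction ratios Woolf intervals of the odds ratio with 0.5 added. A call required 10 reads in the pair, 2-fold and an interval without 1, with a library at 0 set to 3 reads. For the junction ratio both libraries had to list reads. A few-pattern circRNA has fewer patterns than 0.3 times its reads, and fewer than 100, in libraries with 10 or more reads. Scripts were tested on simulated data. Python 3.11.15, numpy 2.4.6, pandas 2.3.3, scipy 1.17.1 and matplotlib 3.10.9 were used.

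Members, gene lists, tests and rules were chosen with earlier results of these data known. Named were members called in any pair, those with 20 or more reads and the 5 leading hosts of each family, the 15 leading circRNAs, 2 leading circRNAs of each such host, called circRNAs, the 5 hosts with most circRNAs and the 5 highest and lowest junction ratios. Further pathway genes were those called, up to 4 per direction, and 8 junctions with both ends in coding exons were printed. The text describes most of these, and 1 member host is not reported here by name. Alternatives covered scaling, the minimum of reads, repeat-end and few-pattern circRNAs, circle type, host assignment, single circRNAs and Rapgef6. The alternatives without Arhgap5 and with ends within 5 bases joined were chosen after seeing the data.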

Additional observations from a re-analysis of the deposited data

Results flagged for a closer look

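A circRNA within Arhgap5 listed with no host (chr12:52509384-52519967) had 4 junction reads and 806 non-junction reads in the pseudoglandular library and was listed in no other. It stands outside the host sums because its host entry is n/a, and 4 reads lie above the 3 that a count of 0 allows. Its end is that of the large Arhgap5 exon.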

How the results depend on the processing

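No paired analysis was possible because each stage has 1 library. For the 23 calls of named hosts, 158 retests under the other settings kept 157, reversed 0 and lost 1, that of Dock10. Among them, 20 retests with a minimum of 20 reads and 23 with no minimum left the ratio and interval unchanged. They could only keep a call, and calls with under 20 reads in the pair were skipped at the higher minimum. The 23 retests with hosts from the annotation were near repeats, since member reads were added to Arhgap5 and Sipa1l2 only. The 23 without repeat-end and few-pattern circRNAs took away 54 member reads and otherwise rescaled the libraries. The 157 kept are therefore not a count of independent checks. Scaling by non-junction reads or by the median of ratios moved the median log2 ratio of all hosts by up to 0.18. Non-junction scaling gave 3 lower members between the terminal sac and canalicular libraries instead of 0, and between the alveolar and terminal sac libraries 7 were higher with median-of-ratios scaling and 7 without repeat-end and few-pattern circRNAs. With exon-type circRNAs only, 4 were lower in that pair, with Arhgap32 and Arhgef7 added. With Rapgef6, 2 hosts were lower in the canalicular than in the pseudoglandular library and 2 had a lower junction ratio in the alveolar. Counted as single circRNAs, with or without joining ends within 5 bases (which joined 0 member circRNAs), 4 were lower between the alveolar and pseudoglandular libraries, 1 higher and 3 lower between the canalicular and pseudoglandular, 1 lower between the terminal sac and canalicular, and 4 lower between the alveolar and terminal sac. Without Arhgap5 the members held 2.09, 1.86, 2.65 and 2.45% of junction reads in order of stage. When repeat-end and few-pattern circRNAs were left out, the alveolar share was 3.04%, of a smaller total, and the summed junction ratio was 3.69% in the canalicular and 3.95% in the terminal sac library. From circRNAs with 5 or more reads that ratio was 11.8, 7.41, 8.96 and 8.12%. The causes were not tested otherwise. Members with under 10 reads in a pair could not be compared at this depth.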
